A study of Mus musculus with 2 samples.

Results

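Wfs1, Fibcd1, Mpped1, Spink8 and Dcn are used as markers of the pyramidal neurons of CA1 in the mouse hippocampus. These 5 genes were taken by symbol from the transcript identifiers of the deposited tables and linked by gene identifier to the gene tables, where they are 5 of 55536 mouse genes, with 23 annotated transcripts between them. The RNA came from hippocampal tissue of adult female mice of the strain named 5xFAD/CAST, described in the labels as a 5xFAD by Cast cross, aged 8 to 10 months. The 5xFAD line carries human amyloid precursor protein and presenilin transgenes under the neuronal Thy1 promoter, and CAST is a wild-derived inbred strain. There were 2 libraries, labelled biological replicates 1 and 2, each from 300 ng of total RNA with ERCC spike-in RNAs, and no control group was analysed here. Both share a donor record, so separate animals cannot be assumed, and each SD is the spread between these 2 samples.

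CA1 is the last pyramidal field of the hippocampal loop. Its neurons receive input from CA3 through the Schaffer collaterals and send output to the subiculum and cortex, and they are among the cells lost in Alzheimer disease. The markers belong to unrelated protein families. Wfs1 encodes wolframin, a membrane protein of the endoplasmic reticulum that is mutated in Wolfram syndrome. Fibcd1 encodes a membrane receptor with a fibrinogen-like domain that binds acetylated sugars, Mpped1 a protein with a metallophosphoesterase domain, and Spink8 a secreted serine protease inhibitor of the Kazal type. Dcn encodes decorin, a secreted small leucine-rich proteoglycan that binds collagen and that fibroblasts also make.

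The libraries held 27816845 and 32316737 expected counts in all, an estimate of reads per gene in which reads matching several genes are split. Each marker had a mean count of at least 100 and its gene count had a deposited posterior SD (a gauge of how surely reads could be assigned) of 0. No other annotated gene overlapped any of the 5. In bulk tissue a lower level can come from fewer cells of a type or from less RNA per cell, and these cannot be told apart. Bulk values also do not show which hippocampal field an RNA came from. No CAST sequence was used, and the effect of strain differences in these genes was not tested.

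All 5 markers were expressed in both libraries. Levels are given as TPM from the gene table, which divides counts by transcript length and so can be compared between genes. Mpped1 was the highest, with 66.5 TPM for replicate 1 and 75.1 TPM for replicate 2, a mean of 70.8 ± 6.09 TPM (SD, n = 2). Wfs1 followed at 57.5 and 61.9 TPM, a mean of 59.7 ± 3.09 TPM. Fibcd1 stood at 32.1 and 36.3 TPM, a mean of 34.2 ± 2.93 TPM. Replicate 2 was the higher library for each of these 3 genes. Dcn had 19.3 TPM in replicate 1 but 27.3 TPM in replicate 2, with a mean of 23.3 ± 5.65 TPM, and its SD was 24.3% of its mean. Spink8 was the only marker with the lower value in replicate 2, at 21.4 and 19.8 TPM, a mean of 20.6 ± 1.19 TPM.

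The order Mpped1, Wfs1, Fibcd1 was the same in both libraries, and the replicate ranges of neighbours in it did not overlap. Mpped1 exceeded Wfs1 1.19-fold, and Wfs1 exceeded Fibcd1 1.75-fold. The ranges of Dcn and Spink8 overlapped: Spink8 was above Dcn in replicate 1 and below it in replicate 2. Mpped1 and Spink8, the ends of the order of means, differed 3.44-fold. Of 13251 nuclear protein-coding genes that reached 1 TPM in each library, 90.2% had a lower mean TPM than Mpped1, 87.7% than Wfs1, 75.9% than Fibcd1, 64.4% than Dcn and 60.1% than Spink8. Relative to Wfs1, Fibcd1 stood at 0.559 and 0.586 of its TPM in replicates 1 and 2, Spink8 at 0.373 and 0.319, and Dcn at 0.335 and 0.441.

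**Figure D1:**
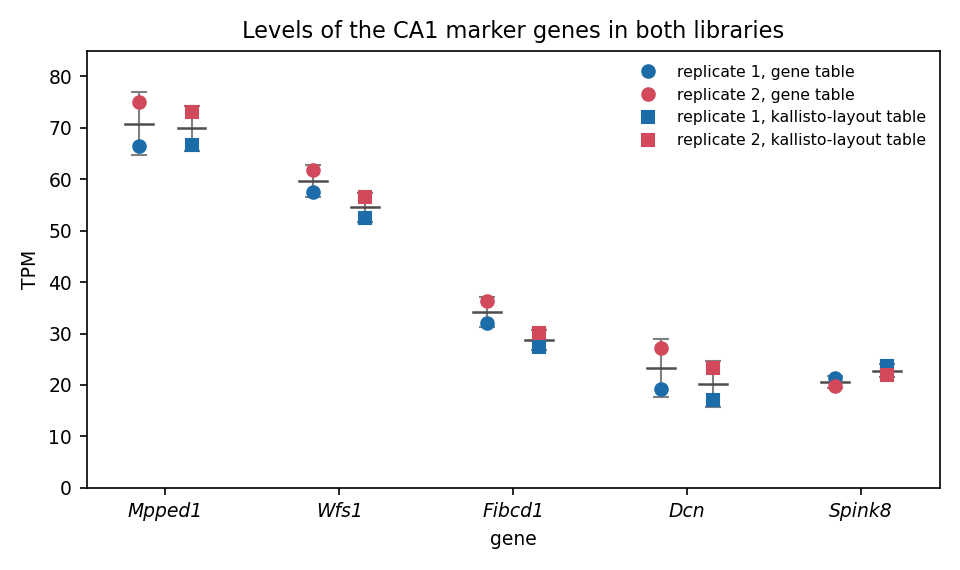
TPM of each CA1 marker gene (vertical axis, from 0) in replicate 1 (blue) and replicate 2 (red), from the gene tables (circles) and summed from the kallisto-layout transcript tables (squares); bars are the mean and SD over 2 libraries. Mpped1 and Wfs1 lie above the other 3 genes in both tables, and Dcn has the widest gap between libraries relative to its mean.

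The second set of deposited tables, in the layout of kallisto, was made from the reads without the alignments. Summed to genes, it placed Mpped1 at 69.9 ± 4.42 TPM, 0.987 times the gene table's mean, and Wfs1 at 54.6 ± 2.83 TPM, 0.914 times. Fibcd1 was lower there, at 28.7 ± 1.98 TPM or 0.840 times, and so was Dcn, at 20.2 ± 4.47 TPM or 0.867 times. Spink8 was higher, at 22.8 ± 1.28 TPM or 1.11 times, which put its mean above that of Dcn. The direction of the difference between libraries was the same in both tables for each gene.

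Wfs1 (ENSMUSG00000039474.13, chromosome 5, 36966104 to 36989205, minus strand, mm10) has 3 annotated transcripts, and the choice between its coding forms is shown by the sequences below. Wfs1-201 holds 2670 coding bases and Wfs1-202 holds 2442. Wfs1-202 enters the last exon 228 bases further in, so that the coding bases at 36968451 to 36968678 are left out. That length is a multiple of 3, and the reading frame is kept. Both printed stretches cover coding bases 838 to 897 of their transcript, and the capitals mark what follows the splice junction.
Wfs1-201: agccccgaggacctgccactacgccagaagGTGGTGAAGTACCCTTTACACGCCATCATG
Wfs1-202: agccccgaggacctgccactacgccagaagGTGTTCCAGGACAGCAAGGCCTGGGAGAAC

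Wfs1-201 took 61.3% and 62.7% of the gene's TPM in replicates 1 and 2 of the RSEM-layout transcript tables, at 35.3 and 38.8 TPM. The shorter coding form Wfs1-202 took 35.5% and 34.0%, a mean level of 20.7 ± 0.431 TPM. The count of Wfs1-201 was 2554 with a posterior SD of 128 in replicate 1, and 3208 with a posterior SD of 149.6 in replicate 2. The kallisto-layout tables gave Wfs1-201 68.9% and 63.2% and Wfs1-202 23.7% and 28.3%, a wider gap between libraries and in the opposite direction for both forms. They gave Wfs1-203, a transcript annotated for nonsense-mediated decay, a mean of 7.97% ± 0.743, against 3.24% ± 0.0807 in the RSEM layout.

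Wolframin acts in the endoplasmic reticulum stress response and its calcium handling, and 16 genes of that system were listed. All 16 reached 1 TPM in each library, and their median was 37.3 ± 0.852 TPM. The highest were the calcium pump gene Atp2a2 at 246 ± 1.73 TPM and the chaperone gene Calr at 197 ± 0.311 TPM. Cisd2, the gene of the second form of Wolfram syndrome, had the ratio furthest from 0, a log2 ratio of replicate 2 over replicate 1 of -0.14, at 15.6 and 15.3 TPM. Between the libraries 7 of the 16 were higher in replicate 2 and 9 lower (median log2 ratio -0.0041), and none differed 2-fold.

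Mpped1 (ENSMUSG00000041708.12, chromosome 15, 83779467 to 83858494, plus strand) has 11 annotated transcripts. Mpped1-201 and Mpped1-203 hold the same number of coding bases, 978, and start from different first exons, at 83780023 and 83784829. The RefSeq promoter table (GRCm38.p6) has an entry for each of these start sites. The stretch from 250 to 51 bases upstream is printed for both, because the 2 transcripts took very different shares of the gene's TPM. Capitals mark CG dinucleotides. The first lies at chr15:83779773-83779972 and the second at chr15:83784579-83784778, both on the plus strand.
Mpped1-201 upstream: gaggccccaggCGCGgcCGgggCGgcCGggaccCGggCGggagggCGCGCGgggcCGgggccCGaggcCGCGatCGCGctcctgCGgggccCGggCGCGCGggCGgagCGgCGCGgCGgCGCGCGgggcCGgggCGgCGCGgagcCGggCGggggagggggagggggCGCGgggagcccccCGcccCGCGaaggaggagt
Mpped1-203 upstream: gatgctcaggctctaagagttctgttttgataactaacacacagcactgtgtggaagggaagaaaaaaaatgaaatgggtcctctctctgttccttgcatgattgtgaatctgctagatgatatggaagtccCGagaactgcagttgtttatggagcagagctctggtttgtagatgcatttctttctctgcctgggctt

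The stretch before Mpped1-201 holds 40 CG dinucleotides and is 90.5% G or C. Of 32851 promoters in the table, 0.11% hold at least as many CG dinucleotides in the same window. The stretch before Mpped1-203 holds 1 CG and is 43.5% G or C, and 89.05% of promoters hold at least as many. The table matched 3 of the 5 markers (Wfs1, Fibcd1 and Mpped1). Spink8 and Dcn were not matched.

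Mpped1-201 took 80.6% and 81.2% of the gene's TPM in replicates 1 and 2, at 53.6 and 61.0 TPM. Mpped1-203 took 2.44% and 0%. Its expected count was 101 with a posterior SD of 130 in replicate 1, and 0 with a posterior SD of 136 in replicate 2, so its level was not resolved in either library. The kallisto-layout tables gave Mpped1-201 61.3% and 72.6%, and Mpped1-203 7.98% and 0.188%. Mpped1-201 led in each library of both tables. Mpped1-202, a fragment of 361 bases, took 9.92% and 14.0% in the kallisto layout on 23.1 and 39.6 estimated counts, and 0.812% and 0.626% in the RSEM layout on 2.76 and 2.77. Mpped1-208, which starts at 83779982 and lacks the second and the third exon of Mpped1-201, took 4.48% and 2.45% in the RSEM layout and 6.84% and 0% in the kallisto layout.

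Mpped1-204 is annotated for nonsense-mediated decay, starts from a first exon of its own at 83788880 and lacks the exon at 83836273 to 83836498. That exon is 226 bases long, not a multiple of 3, so leaving it out shifts the reading frame. The printed stretches are coding bases 377 to 436 of each transcript, with capitals after the junction.
Mpped1-201: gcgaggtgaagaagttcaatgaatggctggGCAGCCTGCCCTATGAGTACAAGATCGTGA
Mpped1-204: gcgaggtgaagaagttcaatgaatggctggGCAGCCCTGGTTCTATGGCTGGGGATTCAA

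Mpped1-204 took 4.21% of the gene's TPM in replicate 1 and 7.82% in replicate 2, with 169 and 403 expected counts and posterior SDs of 62.6 and 71.9. In the kallisto layout it took 7.08% and 6.75%. The libraries thus differed in the RSEM layout and lay close together in the other. Mpped2, the other gene of the family, stood at 16.4 and 13.7 TPM, a mean of 15.1 ± 1.85 TPM. Its log2 ratio by scaled counts was 0.10, the opposite direction to its TPM.

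Spink8 (ENSMUSG00000050074.12, chromosome 9, 109812280 to 109826633, plus strand) was the shortest marker and the one with the fewest reads, 247 in replicate 1 and 263 in replicate 2. Its 2 expressed transcripts differ in their coding end. Spink8-202 holds an exon of 43 bases, at 109824509 to 109824551, that Spink8-201 lacks. The length is not a multiple of 3, so the last exon is read in another frame, and the coding length is 285 bases in Spink8-201 and 315 in Spink8-202. The printed stretches start at coding base 216 and run to the last base before the stop codon, with the extra exon in capitals.
Spink8-201: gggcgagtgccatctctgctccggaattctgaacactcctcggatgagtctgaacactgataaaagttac
Spink8-202: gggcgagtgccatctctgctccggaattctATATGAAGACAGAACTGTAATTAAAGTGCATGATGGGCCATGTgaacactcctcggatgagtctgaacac

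The tables differed on which of these forms led. In the RSEM layout Spink8-201 took 62.2% and 56.7% of the gene's TPM in replicates 1 and 2, with 141 and 135 counts, and Spink8-202 took 37.8% and 43.3%, with 106 and 128 counts. The posterior SDs of these counts lay between 10.3 and 12.6. In the kallisto layout Spink8-201 took 47.0% and 41.7% and Spink8-202 53.0% and 58.3%. The share of Spink8-202 was larger in replicate 2 than in replicate 1 in both tables, which were derived from the same reads. Whether this difference between libraries exceeds assignment and counting error was not tested. Spink8-203 was listed at 0 in both libraries of both tables. Of 11 other Spink genes, 9 had 0 counts in both libraries, a result that leaves room for 3 counts, which is 0.108 CPM in replicate 1 and 0.0933 CPM in replicate 2. Spink10 was the only one to reach 1 TPM in each, at 1.15 and 1.90 TPM.

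Dcn (ENSMUSG00000019929.16, chromosome 10, 97479609 to 97518143, plus strand) has 5 annotated transcripts. Dcn-201 and Dcn-202 both hold 1062 coding bases and differ in their first exon, which is not coding, with start sites at 97479609 and 97482367. Dcn-201 took 82.8% and 84.9% of the gene's TPM in replicates 1 and 2, and Dcn-202 took 16.5% and 13.9%. Dcn-201 had 16.0 TPM in replicate 1 against 23.2 TPM in replicate 2. Dcn-202 stood at 3.19 and 3.79 TPM, with posterior SDs of 37.2 on 104 counts and 39.3 on 141 counts. In this layout most of the gap between libraries lay on Dcn-201. In the kallisto layout Dcn-202 took a larger share, 22.9% and 28.5%, with the difference between libraries in the other direction, and the gap was divided between Dcn-201, at 13.0 and 16.6 TPM, and Dcn-202, at 3.89 and 6.64 TPM. Dcn-203 and Dcn-204, which retain introns, together took 0.622% and 0.110% in the RSEM layout.

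Fibcd1 (ENSMUSG00000026841.7, chromosome 2, 31813290 to 31846005, minus strand) has 1 annotated transcript, Fibcd1-201, of 7 exons and 4751 bases, of which 1377 are coding and 3151 lie after the coding part. Its level therefore holds no choice of isoform. Of 19 other genes with a fibrinogen-like domain, 7 reached 1 TPM in each library. Tnr, a tenascin of the brain's extracellular matrix, stood at 53.7 ± 1.51 TPM, above Fibcd1. The other 6 did not reach Fibcd1, and Tnxb, the highest of them, stood at 4.56 ± 0.170 TPM. Angptl6 stood at 3.71 ± 0.0354 TPM, Fgl2 at 2.45 ± 0.198 TPM, Mfap4 at 2.18 ± 0.552 TPM, Angpt1 at 1.86 ± 0.304 TPM and Angptl2 at 1.48 ± 0.233 TPM. Of the 13 genes averaging 10 or more counts, 5 were higher in replicate 2 and 8 lower. Among those averaging 100 or more, Tnc had the ratio furthest from 0, -0.35, at 1.30 and 0.930 TPM. Those 4 of the 19 genes that had 0 counts in both libraries were Fcnb, Fgl1, Fgb and Fgg.

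**Figure D2:**
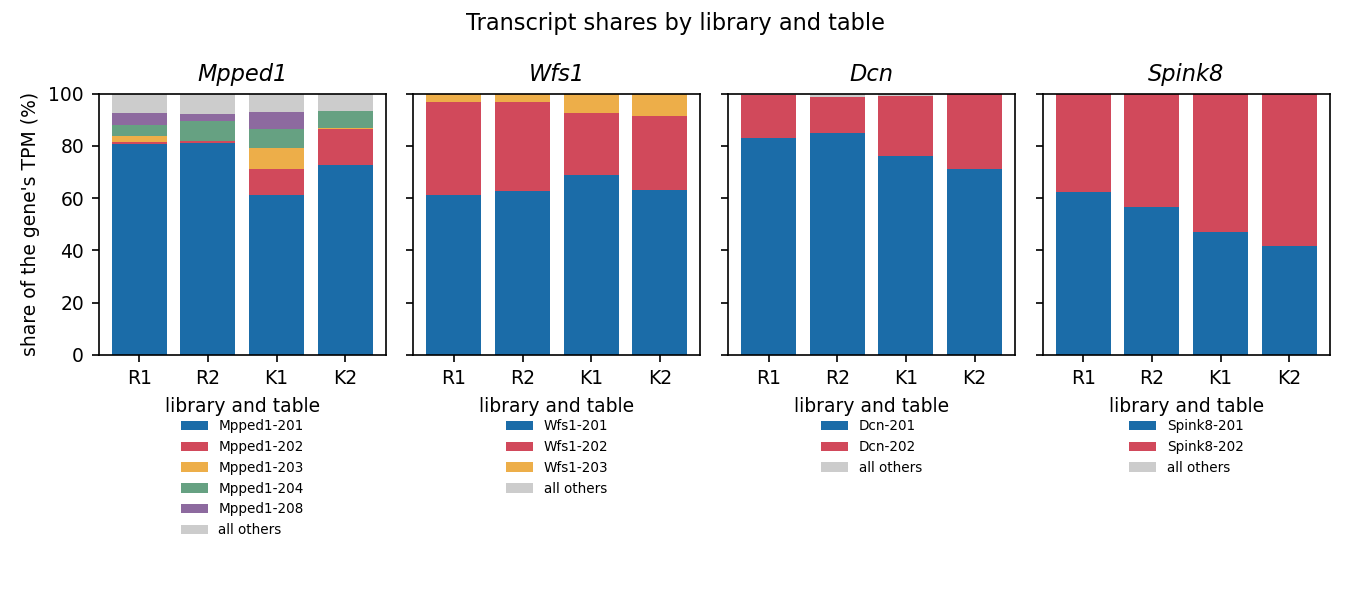
Share of each gene's TPM (vertical axis, percent) taken by its transcripts, for replicates 1 and 2 of the RSEM-layout tables (R1, R2) and of the kallisto-layout tables (K1, K2); grey is the sum of transcripts under 5% in all 4. Spink8 is the gene whose larger share changes from Spink8-201 to Spink8-202 between tables.

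Across the markers, 4 had more than 1 transcript. Of these, 3 had the same leading transcript in each library of both tables (Wfs1-201, Mpped1-201 and Dcn-201), and Spink8 did not. Of the 23 transcripts, 13 took at least 5% of their gene in some library and table.

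The next comparison was between the libraries. Counts were scaled by TMM, a normalization that sets most genes equal, and expressed as the log2 ratio of replicate 2 over replicate 1. With 1 library on each side there is no test, and the interval given with each ratio covers counting error only (95%, exact binomial). Dcn had 635 and 1006 counts and the largest ratio, 0.46 (0.31 to 0.60), or 1.37-fold. Mpped1 had 3720 and 4854 counts and a ratio of 0.18 (0.12 to 0.24). Fibcd1 had 2936 and 3782 counts and a ratio of 0.16 (0.090 to 0.23). Wfs1 had 3854 and 4738 counts and a ratio of 0.093 (0.031 to 0.15). The intervals of these 4 genes lay above 0. The share of all genes with an interval apart from 0 was not computed, so this does not set the markers apart. Genes averaging 100 or more counts had a median absolute log2 ratio of 0.087. Spink8 had a ratio of -0.11 (-0.37 to 0.14), so a difference was not detectable at its depth.

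None of the 5 markers differed 2-fold between the libraries, and of the 18906 genes averaging 10 or more counts, 2.68% did. All 5 markers averaged 100 or more counts, and at that filter 0.305% of 13097 genes differed 2-fold. The median log2 ratio of the 5 was 0.16, beside -0.0023 over those 18906 genes. Among the 13097 genes averaging 100 or more counts, 2.57% had a ratio at least as far from 0 as Dcn, 20.3% as Mpped1, 24.6% as Fibcd1, 38.8% as Spink8 and 47.4% as Wfs1. Dcn thus lay towards the edge of the spread of well-counted genes, and the other 4 lay within it.

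**Figure D3:**
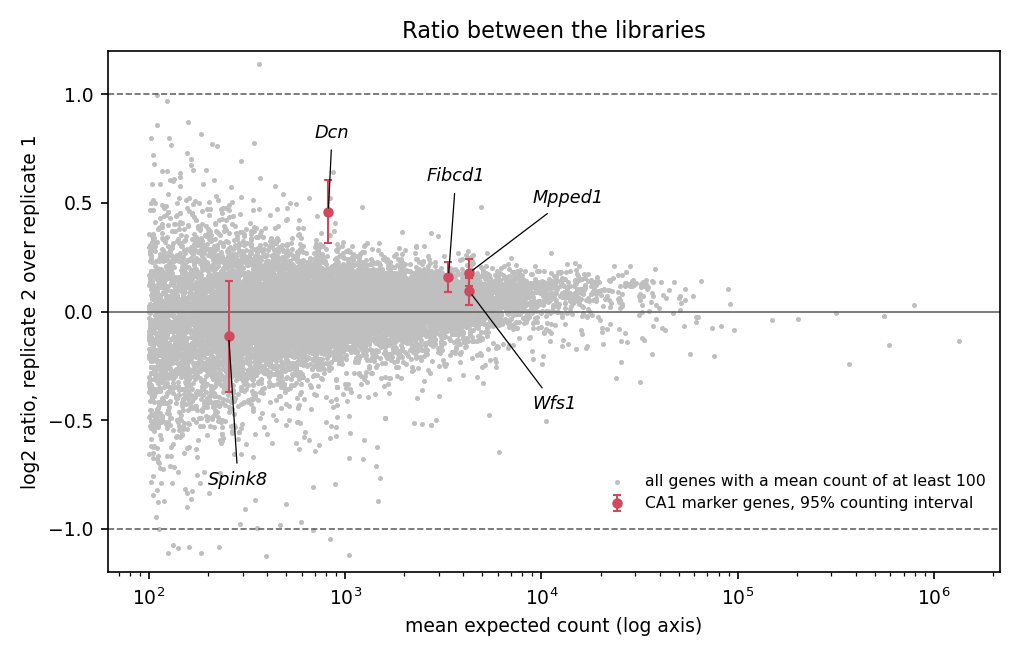
Log2 ratio of replicate 2 over replicate 1 (vertical axis) against mean expected count (log axis) for genes averaging 100 or more counts (grey; 27 genes lie beyond 1.2 in either direction and are not shown) and the CA1 marker genes (red, with 95% counting intervals). Dashed lines mark 2-fold; Dcn lies at 0.46 and Spink8 at -0.11.

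Other neuronal lists differed in direction by scaled counts. Of 9 further CA1 genes, 8 were higher in replicate 2 and 1 was lower, for a median log2 ratio of 0.10, and all 9 reached 1 TPM in each. Pex5l, a regulator of HCN channels, led them at 120.1 ± 7.30 TPM, and the inositol kinase gene Itpka stood at 90.1 ± 5.13 TPM. Grp, which encodes gastrin-releasing peptide, had the largest ratio of the list, 0.49, at 11.1 and 16.3 TPM, a value close to that of Dcn. Dlk1 was the one lower gene by scaled counts, at -0.069, but by TPM it was higher in replicate 2, at 2.86 and 3.19. All 6 genes shared by glutamatergic pyramidal neurons were higher in replicate 2, with a median ratio of 0.19. The kinase gene Camk2a stood at 1174 and 1294 TPM, the calmodulin-binding Nrgn at 497 and 567 TPM, and the transcription factor Neurod2 had the largest ratio, 0.25. The 10 genes of CA2 and CA3 were divided, with 4 higher, 6 lower and a median of -0.087. The calmodulin regulator Pcp4 led them and had the ratio furthest from 0, -0.33, at 126 and 102 TPM, and Cpne4 followed at 47.9 ± 1.17 TPM. Of the 10 dentate granule genes 8 were higher and 2 lower, with a median of 0.093. Fam163b and C1ql2 led them at 46.2 ± 3.61 and 26.8 ± 1.25 TPM, and Dsp, which encodes desmoplakin, had the largest ratio, 0.27.

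By scaled counts, most glial and all choroid plexus genes had lower values in replicate 2. All 6 oligodendrocyte genes had lower values in replicate 2 (median log2 ratio -0.28), and their summed level was 1937 TPM against 1577 TPM. The myelin gene Mobp had the ratio furthest from 0, -0.50, at 294 and 210 TPM. All 6 astrocyte genes were lower by scaled counts, with a median of -0.082, and 5 of 6 microglial genes, with a median of -0.16. By TPM the astrocyte genes Slc1a2, at 811 and 836, and Aldh1l1, at 22.6 and 22.9, went the opposite way. Gfap, the astrocyte filament gene, stood at 1151 and 1145 TPM, and the complement gene C1qa at 158 ± 12.4 TPM. All 8 choroid plexus genes were lower, with a median of -1.56, and their summed level was 454 and 158 TPM. Ttr, which encodes transthyretin, gave 426 and 146 TPM of that sum. None of the genes in these 4 lists was at 0. The 8 mural and the 8 endothelial genes were each divided into 4 higher and 4 lower, with medians of 0.031 and 0.016. Whether these differences bear on the ratios of the CA1 markers was not tested.

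Since fibroblasts express Dcn too, their other genes were set beside it. By scaled counts, 3 of 11 fibroblast and meningeal genes were higher in replicate 2 and 8 lower (median log2 ratio -0.11). By TPM some of these genes went the opposite way, and their median level was 5.54 TPM in replicate 1 and 5.98 TPM in replicate 2. Their summed level was 100.1 TPM against 90.6 TPM, of which Igf2 alone gave 48.0 and 39.7 TPM. Igf2 and Aebp1, the highest, stood at 43.8 ± 5.89 and 11.8 ± 0.629 TPM, and Lum had the ratio furthest from 0, -0.39. The collagen genes of the list, Col1a1, Col1a2 and Col3a1, stood at 3.45 ± 0.0354, 5.76 ± 0.311 and 1.47 ± 0.120 TPM. Of 12 other small leucine-rich proteoglycan genes, 9 averaged 10 or more counts, of which 2 were higher and 7 lower, with a median of -0.084. Bgn and Prelp led them at 12.1 ± 2.86 and 11.1 ± 1.46 TPM, below Dcn, followed by Fmod at 5.18 ± 0.219 TPM. Podn, Ogn, Ecm2 and Lum lay between 2.82 and 3.31 TPM. Both lists held genes that were higher in replicate 2, such as Col3a1 at a ratio of 0.087 and Ogn at 0.19, and Lum is counted in both. The part of fibroblast RNA in the ratio of Dcn was not tested. Of 8 genes for receptors and partners of decorin, 7 were higher in replicate 2 and 1 lower by scaled counts (median 0.057). By TPM their median level was lower in replicate 2, at 12.1 and 11.0 TPM in replicates 1 and 2. Their highest were Lrp1 at 146 ± 0.255 TPM and Vegfa at 28.1 ± 0.177 TPM. Vegfa was the 1 gene lower by scaled counts. Egfr had the ratio furthest from 0, 0.19.

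**Figure D4:**
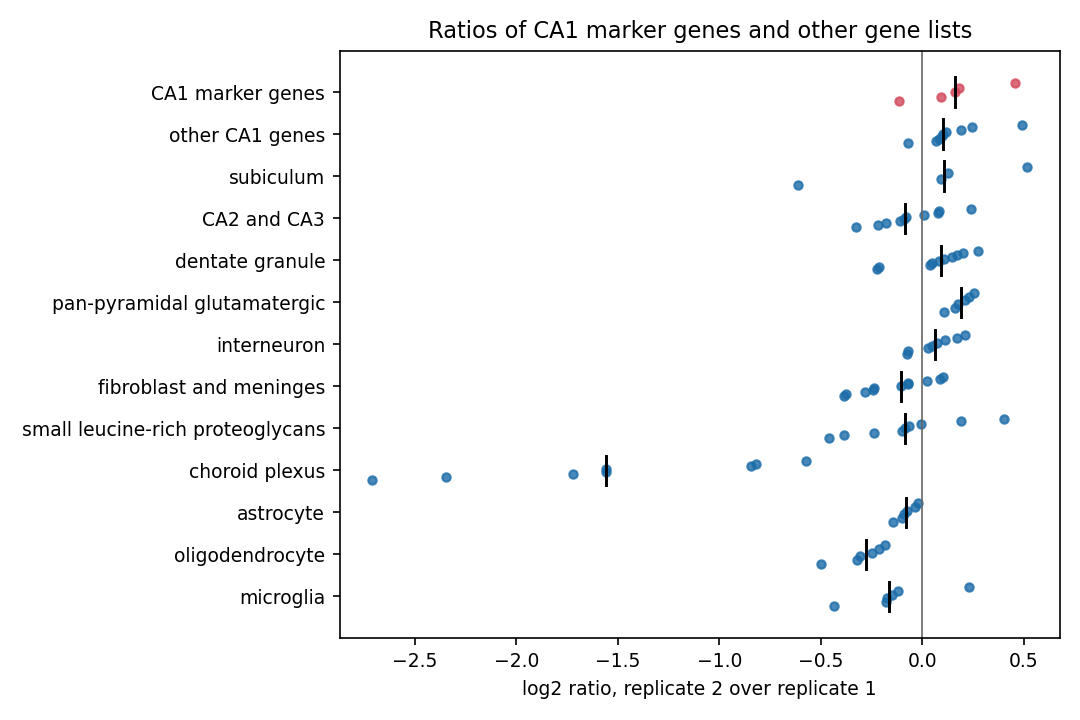
Log2 ratio of replicate 2 over replicate 1 (horizontal axis) for each gene averaging 10 or more counts in 13 lists; each point is a gene and the black bar is the list median. The CA1 markers (red) have a median of 0.16 and the choroid plexus genes one of -1.56.

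Over 2 libraries, likeness of pattern is only likeness of level. By distance on log2(TPM + 1), the coding genes nearest to Mpped1 were Ubr4 and Rapgefl1, those nearest to Wfs1 were Gps1 and Synpr, and those nearest to Fibcd1 were Btf3l4 and Ccser2. Chpt1 and Rmc1 lay nearest to Spink8. Insig2, at 19.4 and 27.2 TPM, lay nearest to Dcn at a distance of 0.0094, and the next, Acadm, lay at 0.089. By scaled counts the log2 ratio of Insig2 was 0.028, beside 0.46 for Dcn, so that likeness held by TPM only. The pairs nearest to the other 4 markers lay at most 0.0164 from them.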

How the data were processed

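The readme files name mm10 and GENCODE M21 for both libraries. The authors deposited expected counts, TPM, FPKM and posterior SDs for genes and transcripts, in RSEM's column layout and derived from alignments. They also deposited estimated counts and TPM by transcript, in kallisto's layout and derived from reads. Programs, versions and the strand setting were not given in the sources used here. Levels are the mean and SD of deposited TPM over 2 libraries. A transcript's share is its part of the gene's summed TPM. Expected counts were rounded, scaled by TMM in edgeR 4.0.16 (R 4.3.3) on genes averaging 10 or more counts, and compared as log2 CPM with a prior count of 2; 2-fold was the call. No hypothesis test was run. Per library, 96 ERCC, 1 phiX174 and 26248 numeric rows stayed out of library sizes (the numeric rows held 0% of counts). The labels name no molecular identifiers, so intervals and floors cover counting error only. The ratio step was tested on simulated counts. Coordinates and transcript sequences are those of GENCODE M21, and promoters those of RefSeq (GRCm38.p6).

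The members and 20 gene lists were chosen with earlier results of these data known. All 175 list entries matched the annotation, 1 by another symbol. Genes named are the 5 markers, their transcripts of at least 5%, the 2 highest genes of a list and the one with the ratio furthest from 0 at 100 counts or more, family genes with a TPM of at least 1, and the 2 nearest in level; for lists of other cell types only some of these are printed. Some genes named at 0 or as markers fall outside this rule and were chosen after their values were seen. They are Fcnb, Fgl1, Fgb, Fgg, Dlk1, Nts, Col1a1, Col1a2, Col3a1, Aldh1l1, and the transcripts under 5%. Alternatives covered other scalings (DESeq2 1.42.0 among them), filters, prior counts, units and tables. Python 3.11.15, pandas 2.3.3, scipy 1.17.1 and matplotlib 3.10.9 were used.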

Additional observations from a re-analysis of the deposited data

How the results depend on the processing

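The median level of the 5 markers was 34.2 TPM. It was 28.7 in the kallisto-layout tables, 23.9 as FPKM, 76.4 as TPM rescaled over nuclear protein-coding genes and 38.8 as TPM without spike-ins and mitochondrial genes. Leaving out each replicate in turn gave 32.1 to 36.3 TPM. The median log2 ratio of 0.16 became 0.23 with ERCC spike-in scaling, which moved the median of all genes to 0.069. Under each of the 9 alternatives to the ratio, 4 of the 5 markers were higher in replicate 2, Spink8 was lower, and 0 differed 2-fold. The median share of the leading transcript was 80.9%. It was 70.0% in the kallisto-layout tables, 83.7% as a share of expected counts, 75.8% from posterior mean TPM, and 80.6% to 81.2% with each replicate left out. The cause of these moves was not tested. Of 18906 genes, 507 differed 2-fold, against 2690 of 28160 with no count filter, 40 of 13097 at a mean count of at least 100, and 768 of 18868 as a ratio of TPM. Mpped1, Wfs1 and Fibcd1 kept their order in each setting, and Spink8 stood above Dcn in the kallisto-layout tables and without replicate 2. No paired analysis was possible because there is 1 group. With 2 libraries, depth limits Spink8 most, at 247 and 263 counts.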

Other observations

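The 4 subiculum genes, from the field that receives CA1 output, were divided, with 3 higher in replicate 2 and 1 lower. Nts, which encodes neurotensin, had 5.14 TPM in replicate 1 against 7.46 TPM in replicate 2 (log2 ratio 0.52). Slc17a6, the vesicular glutamate transporter gene that thalamic neurons also express, stood at 14.9 and 9.41 TPM, a ratio of -0.61. Etv1 stood at 36.0 ± 2.45 TPM and Fn1 at 21.5 ± 1.97 TPM. The 8 neocortex genes were evenly divided, with 4 higher and 4 lower in replicate 2 and a median of 0.0085. Of 8 interneuron genes 6 were higher, with a median of 0.060, and the neuropeptide gene Sst, the highest, stood at 138 and 162 TPM.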
